A study of Mus musculus with 6 samples.

Results

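The enzymes described here carry tryptophan through kynurenine to quinolinate, the route by which liver breaks down most dietary tryptophan and can build NAD from it. The 9 genes Tdo2, Ido2, Afmid, Kynu, Kmo, Haao, Acmsd, Qprt and Aadat were taken by symbol from a table of 55450 genes, and all 9 were among the 14539 genes with enough counts to be tested. They were measured in liver RNA of 6 mice, all labelled C57BL/J and all given an adeno-associated virus of serotype 8 carrying the Cre recombinase at 6 weeks of age. The 3 knockout mice (KO) carried loxP-flanked (fl/fl) alleles of LKB1, the kinase encoded by Stk11, and the 3 wild-type mice (WT, genotype labelled normal) did not. The left liver lobe was taken 4 weeks later, at 10 weeks of age, and the series is titled as a study of metabolic reprogramming. The promoter that drove Cre is not given in the labels. The tissue is whole liver, so cells that the virus did not reach would be included.

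The pathway opens with the cleavage of the indole ring of tryptophan, by Tdo2 in hepatocytes or by the Ido enzymes, and Afmid then removes a formyl group to give kynurenine. Kynurenine has 3 fates: Kmo hydroxylates it, Kynu cleaves it to anthranilate, and aminotransferases such as Aadat turn it into kynurenic acid. Hydroxykynurenine is cut by Kynu to hydroxyanthranilate, which Haao opens into an unstable semialdehyde. Acmsd removes that semialdehyde toward glutarate and full oxidation, whereas the part that escapes closes by itself to quinolinate, which Qprt joins to ribose phosphate on the way to NAD.

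Total counts ran from 47659122 to 56147667 per library. Stk11 was at 22.1, 14.4 and 11.4 CPM (counts scaled to library depth) in the KO libraries and 66.1, 64.2 and 69.7 CPM in WT, a log2 fold change of -2.06 ± 0.25 (SE) at an adjusted p of 0.0167 in edgeR's quasi-likelihood test. Replicate 1 of each group carried Xist counts (42472 and 29243) and the other 4 libraries at most 16. Those 4 libraries carried 6146 to 8199 counts of 4 Y-linked genes, against 6 and 3 in the replicate 1 libraries. The labels do not mention this, and values are therefore also given for the 4 libraries with Y-linked counts (Y libraries below) and for KO 1 against WT 1 (the Xist pair), which is a single comparison without replication.

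The sequence before the start of Tdo2, the most abundant member and the entry to the pathway, is printed here to give its context. RefSeq (GRCm38.p6) held such a sequence for 7 of the 9 members, the exceptions being Ido2 and Kynu. The window is the 250 bases before the annotated start, on the gene's strand, with matches to the searched motifs in capitals, and lies at chr3:81975729-81975978 (minus strand).
Tdo2: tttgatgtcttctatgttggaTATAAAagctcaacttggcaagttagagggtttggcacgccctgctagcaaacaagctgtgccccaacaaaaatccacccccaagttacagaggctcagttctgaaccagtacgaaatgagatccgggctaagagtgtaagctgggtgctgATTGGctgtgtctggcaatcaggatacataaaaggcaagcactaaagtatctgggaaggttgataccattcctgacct

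The motifs searched on both strands were the cAMP response element TGACGTCA and its core TGACG, which overlap each other, the short glucocorticoid element TGTTCT (16.1% of windows), the CCAAT box, the TATA box TATAAA, and, by name, an HNF1 site (0.00913% of windows) and a nuclear receptor direct repeat with a spacer of 1 base (0.0335%). The capitals in Tdo2 are a TATAAA between 229 and 224 bases before the start (12.4% of all 32851 windows of this length) and a CCAAT box on the opposite strand between 78 and 74 bases before it (33.8%). The letters TGACGTCA, held by 1.55% of windows, and TGACG, held by 17.8%, were not in the Tdo2 window. The HNF1 site and the direct repeat were not in it either. Haao held a TGTTCT between 164 and 159 bases before its start. These matches describe letters only. The RefSeq start of Tdo2 lies 474 bases inside the GENCODE gene.

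Acmsd (aminocarboxymuconate semialdehyde decarboxylase, ENSMUSG00000026348.7) lies on the plus strand of chromosome 1 from 127729413 to 127767978 (GRCm38, as for all positions here). It was the only member past an adjusted p of 0.05. It had 6480, 17605 and 19834 counts in the KO libraries against 685, 809 and 916 in WT. Scaled to depth, these were 111, 317 and 421 CPM in KO and 13.5, 15.6 and 19.6 CPM in WT. All 3 KO libraries lay above all 3 WT libraries, with replicate 1 the lowest of each group. The mean was 283 ± 158 CPM in KO and 16.2 ± 3.09 CPM in WT (SD, n = 3 each). Acmsd rose by a factor of 17.4 (95% interval 7.59 to 40.1), a log2 fold change of 4.12 ± 0.51 (SE) with an edgeR adjusted p of 0.0175. A fitted fold at least this large was found for 0.509% of all genes tested. Its antisense neighbour 2900009J06Rik shares 94 exonic bases with it, or 3.32% of its exon length, and had 59 counts over all 6 libraries.

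Since the groups did not overlap, both subsets had to show the same direction for Acmsd, and only the size could differ. The log2 difference was 4.38 in the Y libraries and 3.04 in the Xist pair. A test of whether these differ, the interaction of group with Xist state in edgeR, gave an unadjusted p of 0.0087 and an adjusted p of 0.118. In that test the Xist pair has no replicates, so the spread between libraries comes from the Y libraries alone. The call was lost when KO 2, KO 3, WT 2 or WT 3 was left out, with adjusted p-values of 0.0553, 0.0679, 0.125 and 0.104, while the log2 fold change stayed between 3.72 and 4.50 over all 15 alternatives tried.

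**Figure D1:**
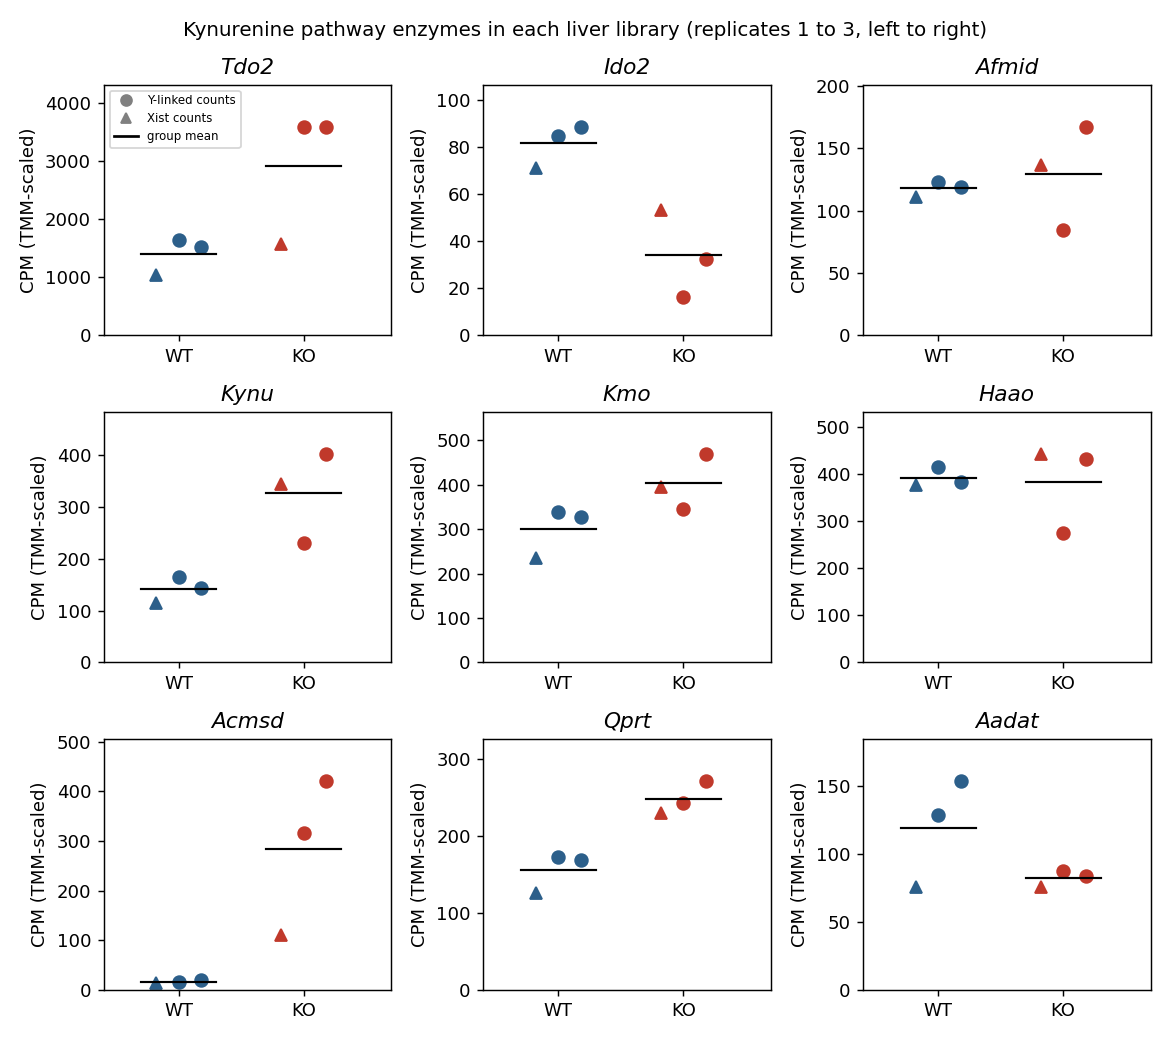
Normalised counts (CPM, vertical axes from 0) of the 9 enzymes in each library, with WT in blue, KO in red, triangles for the Xist pair, circles for the Y libraries and bars for the group means of 3. Acmsd is at 13.5 to 19.6 CPM in WT and 111 to 421 CPM in KO, whereas Afmid and Haao overlap between the groups.

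The count of 1 member called of 9 stands beside 3.37% of all tested genes, 2.15% as higher and 1.22% as lower. Of the 9 members 5 had an unadjusted p under 0.05, which 26.3% of all genes had. Groups without overlap were found for 5 members, with Acmsd, Kynu, Kmo and Qprt higher in every KO library and Ido2 lower in every KO library. Over all genes that separation occurred in 32.4%, 16.9% with KO above and 15.5% with KO below. The median log2 fold change of the 9 members was 0.43, against 0.01 over all genes tested.

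At the entry of the pathway the dioxygenases lay in opposite directions. Tdo2 (ENSMUSG00000028011.16, chromosome 3, 81957090 to 81976202, minus strand), the main tryptophan dioxygenase of hepatocytes, was at 1562, 3589 and 3580 CPM in KO and at 1032, 1637 and 1526 CPM in WT. KO 2 and KO 3 stood far above every WT library, but KO 1 fell inside the WT range, so the groups overlapped. The fold was 2.08 (95% interval 1.12 to 3.86), a log2 fold change of 1.06 ± 0.38 (SE), and the edgeR adjusted p of 0.141 did not pass. Without KO 1 the log2 fold change was 1.35 with an adjusted p of 0.0111, and over the Y libraries it was 1.17 with an adjusted p of 0.0121. Those fits called 30.2% and 33.3% of all genes. Over the 15 alternatives Tdo2 passed in 4, with adjusted p-values from 0.0111 to 0.339.

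Ido2 (ENSMUSG00000031549.16, chromosome 8, 24531892 to 24576333, minus strand), a dioxygenase with low affinity for tryptophan, had 53.2, 16.1 and 32.5 CPM in KO and 71.2, 84.6 and 88.6 CPM in WT. Every KO library was below every WT library. The mean was 33.9 ± 18.6 CPM in KO and 81.5 ± 9.12 CPM in WT (SD, n = 3 each). Its log2 fold change of -1.26 ± 0.39 (SE) had an adjusted p of 0.109 in edgeR. As with Tdo2, KO 1 stood nearest to WT, and without it the log2 fold change was -1.75 (adjusted p = 0.0102, with 30.2% of all genes called). Over the 15 alternatives Ido2 passed in 3, with adjusted p-values from 0.0102 to 0.289. Ido1, the inducible relative of Ido2 that is known from immune cells, had 0 counts in all 6 libraries.

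Afmid (ENSMUSG00000017718.15, chromosome 11, 117825924 to 117839908, plus strand), the formamidase that releases kynurenine, was at 137, 84.6 and 167 CPM in KO and at 111, 123 and 119 CPM in WT. The KO libraries spread to both sides of the WT values. Its log2 fold change was 0.14 ± 0.25 (SE, edgeR adjusted p = 0.755), and the interval of the fold ran from 0.733 to 1.65. The annotated gene Gm20708 shares 44.2% of the exon length of Afmid on the same strand and received 68 counts over all libraries, so the values of Afmid are uncertain. How reads were divided between these genes was not tested.

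Among the enzymes that use kynurenine, Kynu stood closest to the threshold. Kynu (kynureninase, ENSMUSG00000026866.16, chromosome 2, 43555329 to 43682715, plus strand) was at 345, 230.1 and 402 CPM in KO and at 114, 166 and 143 CPM in WT. All KO libraries lay above all WT libraries, and the lowest was KO 2 rather than KO 1. The mean was 326 ± 87.6 CPM against 141 ± 25.7 CPM (SD, n = 3 each). This was a fold of 2.31 (95% interval 1.52 to 3.51), or 1.21 ± 0.25 (SE) on the log2 scale, and edgeR's adjusted p was 0.0541. Scaling by library size alone gave an adjusted p of 0.0336, leaving out KO 1 gave 0.0243, and the range over the 15 alternatives was 0.000211 to 0.215.

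Kmo (kynurenine monooxygenase, ENSMUSG00000039783.15, chromosome 1, 175620381 to 175662116, plus strand) was at 395, 346 and 469 CPM in KO and at 236, 338 and 326 CPM in WT. The groups did not overlap, although KO 2 and WT 2 nearly met. The log2 fold change of 0.43 ± 0.21 (SE) had an adjusted p of 0.246 in edgeR. The gene's range overlaps that of Fh1 on the opposite strand, with 0 exonic bases shared.

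Aadat (aminoadipate aminotransferase, ENSMUSG00000057228.6, chromosome 8, 60505932 to 60545677, plus strand), which makes kynurenic acid and also acts in lysine breakdown, was at 75.6, 87.2 and 84.0 CPM in KO and at 75.6, 129 and 154 CPM in WT. The KO libraries were close together and WT 1 was level with them, while WT 2 and WT 3 stood higher. Its log2 fold change was -0.54 ± 0.26 (SE, edgeR adjusted p = 0.236). Over the Y libraries it was -0.73 at an adjusted p of 0.0131, and for the Xist pair the log2 difference was 0.0013. The fit of the Y libraries, which called 33.3% of all genes, was the only 1 of the 15 alternatives in which Aadat passed. Its largest adjusted p among them was 0.562. The interaction of group with Xist state had an adjusted p of 0.174 for Aadat.

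The estimates at the ring-opening step and the NAD step were smaller than that of Acmsd. Haao (hydroxyanthranilate dioxygenase, ENSMUSG00000000673.9, chromosome 17, 83831156 to 83847963, minus strand) was at 444, 275 and 433 CPM in KO and at 378, 416 and 383 CPM in WT. The groups overlapped, and KO 2 was the lowest and KO 1 the highest of the 6 libraries. The log2 fold change was -0.03 ± 0.22 (SE, edgeR adjusted p = 0.940), and the 95% interval of the fold, 0.682 to 1.40, lies below that of Acmsd.

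Qprt (quinolinate phosphoribosyltransferase, ENSMUSG00000030674.5, chromosome 7, 127107114 to 127122226, minus strand) was at 230.0, 243 and 272 CPM in KO and at 126, 173 and 169 CPM in WT. All KO libraries were above all WT libraries, with means of 248 ± 21.3 and 156 ± 26.2 CPM (SD, n = 3 each), and WT 1 stood below the other WT libraries. The fold was 1.60 (95% interval 1.19 to 2.14) and the log2 fold change 0.67 ± 0.18 (SE), with an edgeR adjusted p of 0.0788. Leaving out KO 1 moved the log2 value to 0.72 and the adjusted p to 0.0273. Qprt also passed with the Xist state as a term in the model (adjusted p = 0.0391). Those 2 fits called 30.2% and 10.3% of all genes. Over the 15 alternatives Qprt passed in 4, with adjusted p-values from 0.00762 to 0.239.

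**Figure D2:**
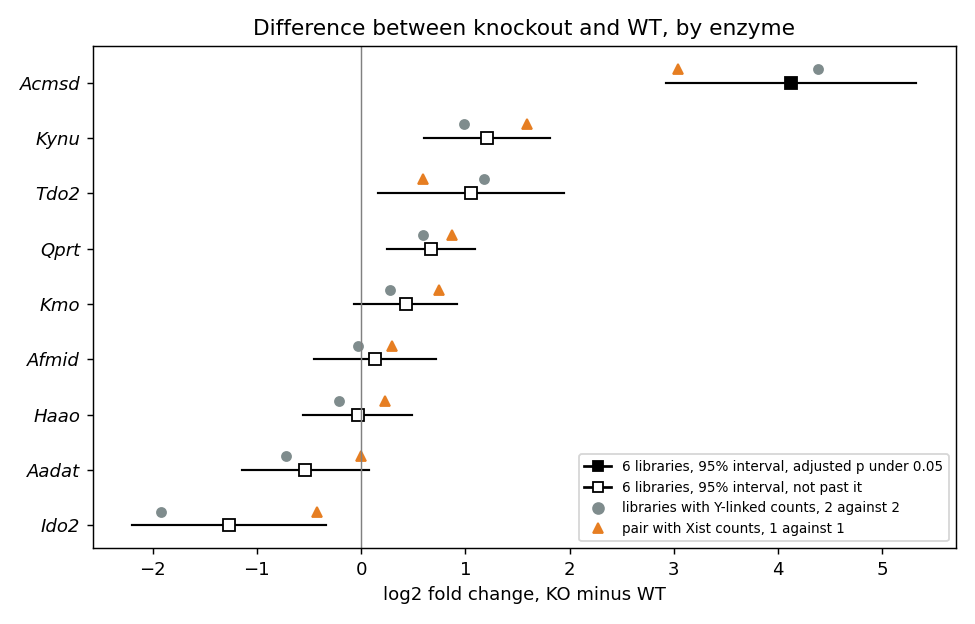
Log2 fold change of KO over WT for each enzyme (squares, with 95% intervals from the edgeR fit of 6 libraries), filled where the adjusted p is under 0.05, with grey circles for the Y libraries (2 against 2) and orange triangles for the Xist pair. Acmsd lies at 4.12, Kynu, Tdo2 and Qprt between 0.67 and 1.21, and Ido2 at -1.26, where the triangle is nearer to 0 than the circle.

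The members differed in how far KO 1 stood from the other KO libraries. KO 1 was the lowest KO library for 4 members (Tdo2, Acmsd, Qprt and Aadat) and the highest for 2 (Ido2 and Haao), and 41.1% of all genes had it lowest. Among the WT libraries, WT 1 was the lowest for all 9 members, an order that 40.5% of all tested genes showed. Over the Y libraries 6 of the 9 members passed an adjusted p of 0.05 in edgeR, Tdo2, Kynu, Acmsd and Qprt as higher and Ido2 and Aadat as lower. That stands beside 33.3% of all genes in the same fit. With the Xist state as a term 4 members passed, Tdo2, Kynu, Acmsd and Qprt, against 10.3% of all genes. By the interaction of group with Xist state 0 of the 9 members passed in edgeR and 0 in limma voom. Over all genes 2.9% passed that interaction.

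The count of enzymes called and the count of all genes called both changed with the settings, though not always together. Acmsd alone passed with DESeq2 size factors in edgeR (3.29% of all genes), in limma voom (2.97%) and with a minimum of 1 CPM in 3 libraries (4.28%). Kynu joined Acmsd with library size alone (3.51%) and without a filter on low counts (3.25%). DESeq2 called 5 enzymes, adding Tdo2, Ido2, Kynu and Qprt to Acmsd (15.8% of all genes), and edgeR without KO 1 called the same 5 (30.2%). Without WT 1 only Acmsd passed in edgeR (1.75%), and the same held with the replicate number as a block (0.722%). Without KO 2, KO 3, WT 2 or WT 3 edgeR called 0 enzymes, beside 0.578%, 0.233%, 0.0401% and 0.133% of all genes.

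Levels of different genes were compared as CPM per kilobase of the longest principal transcript. In WT, Tdo2 stood first at 408 ± 93.9 CPM per kilobase and Haao next at 284 ± 14.7, and the lowest Tdo2 library met the highest of Haao. Kmo (111 ± 20.7) and Qprt (75.9 ± 12.8) followed, then Aadat (60.5 ± 20.2), Kynu (51.5 ± 9.39) and Afmid (50.7 ± 2.60), whose libraries overlapped one another, and those of Qprt and Aadat also overlapped. Ido2 was at 33.2 ± 3.72, and Acmsd was last at 5.97 ± 1.14 CPM per kilobase (SD, n = 3 for all). Acmsd was thus the scarcest of these 9 transcripts in WT liver.

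In KO, Tdo2 was still first at 848 ± 340 CPM per kilobase, Haao was at 278 ± 68.4 and Kmo at 149.6 ± 23.0. Qprt (121 ± 10.4), Kynu (119 ± 32.0) and Acmsd (104 ± 58.0) then overlapped in their libraries, with one another and with Kmo. Acmsd spread the widest of these, and in KO 1, at 40.9 CPM per kilobase, it was within the KO ranges of Afmid and Aadat. Afmid (55.7 ± 17.97), Aadat (41.7 ± 3.03) and Ido2 (13.8 ± 7.57) closed the order, Afmid and Aadat with overlap and Ido2 without (SD, n = 3 for all). Acmsd moved from rank 9 in WT to rank 6 in KO by this length. With the union of all annotated exons as the length it moved from rank 9 to rank 2, so its place in KO depends on the length used, whereas its place in WT was 9 with either. Places of other enzymes depend on the length as well. Haao in KO was at rank 2 by the principal transcript and at rank 5 by the union of exons.

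**Figure D3:**
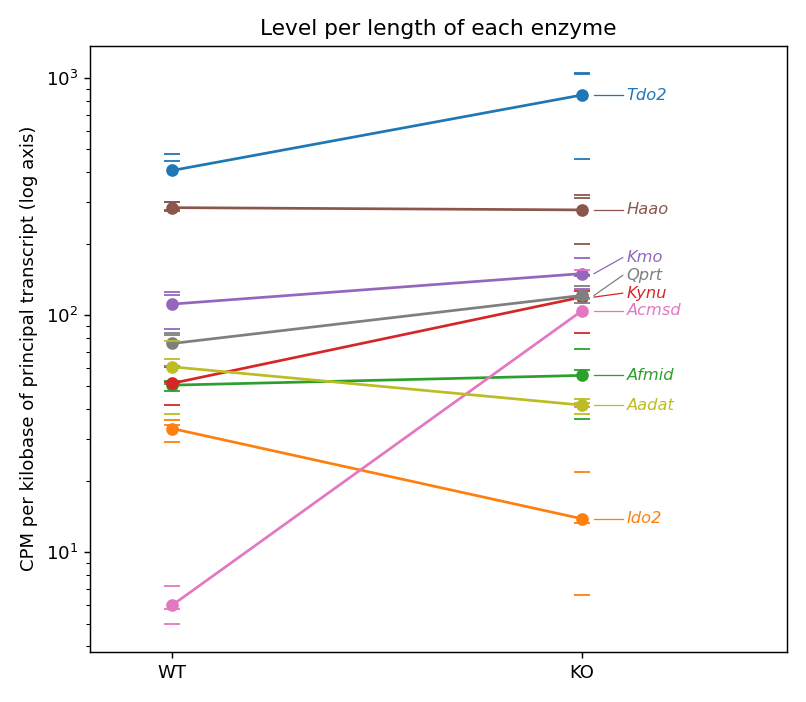
Level of each enzyme in CPM per kilobase of principal transcript (log axis) in WT and KO, with a line between the group means and a dash for each of the 3 libraries per group. The mean of Acmsd goes from 5.97 to 104, with KO 1 at 40.9, while Ido2 takes the lowest place in KO at 13.8.

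Ratios within a library set Kmo against Aadat and against Kynu, which can all use kynurenine, and Acmsd against Qprt, which act on either side of the closure to quinolinate. An exact two-sided permutation test with 3 libraries against 3 cannot go below a p of 0.1, so none of the 3 ratios can pass 0.05. The log2 ratio of Acmsd to Qprt was -1.05, 0.38 and 0.63 in KO and -3.21, -3.47 and -3.10 in WT, a difference of 3.25 (exact p = 0.1, adjusted over 3 ratios 0.1). In CPM, Acmsd was far below Qprt in every WT library and above it in KO 2 and KO 3. The log2 ratio of Kmo to Aadat was 2.28 ± 0.26 in KO and 1.37 ± 0.28 in WT (SD, n = 3 each; exact p = 0.1). The log2 ratio of Kmo to Kynu was lower in KO, at 0.34 ± 0.22 against 1.09 ± 0.09 (SD, n = 3 each; exact p = 0.1). In all 3 ratios the groups did not overlap.

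**Figure D4:**
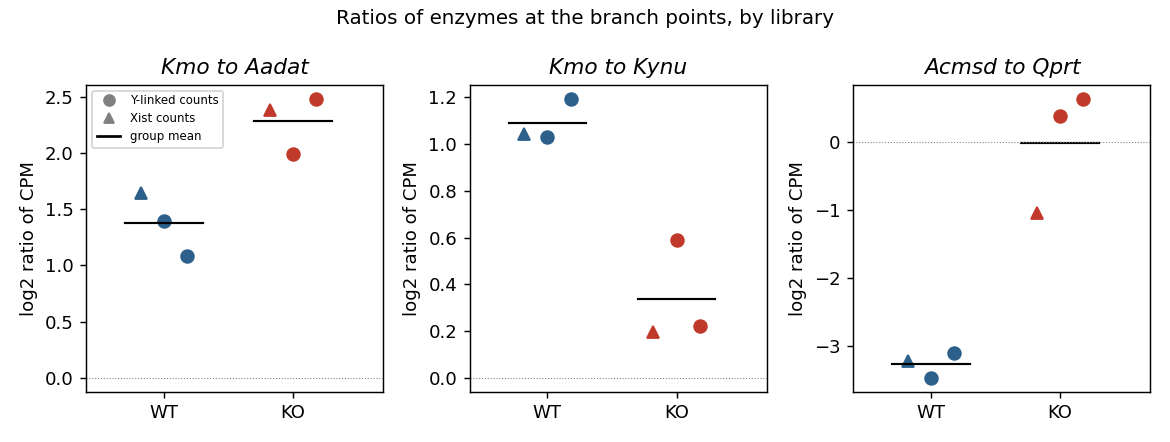
Log2 ratio of CPM values of Kmo to Aadat, Kmo to Kynu and Acmsd to Qprt in each library, with triangles for the Xist pair, circles for the Y libraries and bars for group means. The ratio of Acmsd to Qprt lies between -3.47 and -3.10 in WT and between -1.05 and 0.63 in KO.

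The genes around the pathway were read from lists of 63 genes, of which 54 were tested and 6 passed the threshold. Of all genes tested 3.37% passed, 2.15% as higher and 1.22% as lower, and 26.3% had an unadjusted p under 0.05. These shares also stand beside the edgeR counts of each list below. Past Acmsd, the glutarate arm of 6 genes had 1 call as higher and 0 as lower, and a median log2 fold change of 0.60. Dhtkd1, a dehydrogenase subunit that acts on oxoadipate, rose from 43.1, 49.1 and 40.3 CPM in WT to 77.2, 67.8 and 92.1 CPM in KO (log2 fold change 0.84 ± 0.16 SE, edgeR adjusted p = 0.0431). Aldh8a1, the dehydrogenase that receives the product of Acmsd, was at 416, 341 and 441 CPM in KO and 311, 319 and 305 CPM in WT (adjusted p = 0.219). Dlst and Ogdh, shared with the tricarboxylic acid cycle, had log2 fold changes of 1.01 and 1.46 with adjusted p-values of 0.0755 and 0.0852. The Dhtkd1 call was lost without KO 2, KO 3, WT 1, WT 2 or WT 3, at adjusted p-values of 0.0656 to 0.213.

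In the list for NAD, 2 of 11 tested genes passed, both as higher, and the median log2 fold change was 0.50. Nnmt, which methylates nicotinamide and so withdraws it from NAD salvage, was at 617, 978 and 1232 CPM in KO and 40.4, 31.7 and 33.8 CPM in WT. It rose by 4.74 ± 0.32 on the log2 scale (SE, edgeR adjusted p = 0.00357), a larger change than that of Acmsd, and its call was lost only without WT 2 (adjusted p = 0.0525) among the 15 alternatives. Nadsyn1, the NAD synthetase that ends the route from quinolinate, rose from 17.8, 20.7 and 19.4 CPM to 28.8, 48.8 and 39.4 CPM (log2 fold change 1.02 ± 0.20 SE, adjusted p = 0.0470). Of the refits without 1 library that call was kept only without KO 1, with adjusted p-values of 0.0997 to 0.207 in the other 5, and limma voom (adjusted p = 0.0535) also missed the threshold. Nmnat1, the adenylyltransferase between Qprt and Nadsyn1, had a log2 fold change of 0.50 (adjusted p = 0.0641), Nadk had 0.76 (0.0866) and Nmrk1 had -0.74 (0.114).

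Tryptophan transport (6 tested, 0 called by edgeR, 3 with an unadjusted p under 0.05, 2 called by DESeq2 and 0 by limma voom) had a median log2 fold change of 0.69. Slc16a10, a carrier of aromatic amino acids, was at 147, 175 and 234 CPM in KO and 116, 95.6 and 93.8 CPM in WT (edgeR adjusted p = 0.0687). Slc3a2, the heavy chain of large neutral amino acid exchangers, was at 42.9, 191 and 88.5 CPM in KO and 39.5, 33.5 and 33.2 CPM in WT (adjusted p = 0.106). The other enzymes that use tryptophan or kynurenine (11 tested, 0 called by edgeR, 3 with an unadjusted p under 0.05, 3 called by DESeq2 and 0 by limma voom) had a median of -0.13. Their lowest p-values were those of Kyat1 (log2 fold change -0.74, adjusted p = 0.0729), Kyat3 (1.05, 0.0816) and Ddc (0.95, 0.116). Kyat1 and Kyat3, both of which can make kynurenic acid, thus had estimates of opposite sign, neither past the threshold.

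Kynurenine and kynurenic acid are ligands of the aryl hydrocarbon receptor. Of 8 tested genes in that list 1 passed, Cyp1a2, a cytochrome P450 that is also known as a pericentral gene, which fell from 539, 741 and 750.2 CPM to 291, 241 and 259 CPM (log2 fold change -1.36 ± 0.20 SE, edgeR adjusted p = 0.0259). Nqo1 and Cyp1a1, other targets of the receptor, had positive estimates of 2.20 and 1.14 with adjusted p-values of 0.0789 and 0.133. The Cyp1a2 call was lost without KO 2, KO 3, WT 2 or WT 3 (adjusted p = 0.0795 to 0.150).

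Tdo2 is a classic target of glucocorticoids together with Tat, the tyrosine aminotransferase. Of the 8 genes in the glucocorticoid list 2 passed, both as higher, with a median of 1.41. Tat was at 3005, 3409 and 5971 CPM in KO and 1058, 1165 and 1190.3 CPM in WT (log2 fold change 1.86 ± 0.31 SE, edgeR adjusted p = 0.0344). Sgk1 was at 105, 252 and 150.5 CPM in KO and 21.1, 18.1 and 18.9 CPM in WT (3.12 ± 0.33 SE, adjusted p = 0.0112). The receptor gene Nr3c1 had an estimate of -0.54 (adjusted p = 0.0637), Per1 had 1.79 (0.0687) and Mt2 had 4.30 (0.0850). Tsc22d3, another target, showed no rise, with an estimate of -0.146 (edgeR adjusted p = 0.612) and overlapping groups. Fkbp5 and Zbtb16, given by library further below, had positive estimates and overlapping groups (edgeR adjusted p = 0.285 and 0.342). Tat lost its call without each library but KO 1, and Sgk1 without KO 3, WT 2 or WT 3, with adjusted p-values of 0.0607 to 0.186 in those refits. Genes for vitamin B6 and flavin cofactors (4 tested, 0 called by edgeR, DESeq2 or limma voom, 0 with an unadjusted p under 0.05) had a median of 0.01.

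**Figure D5:**
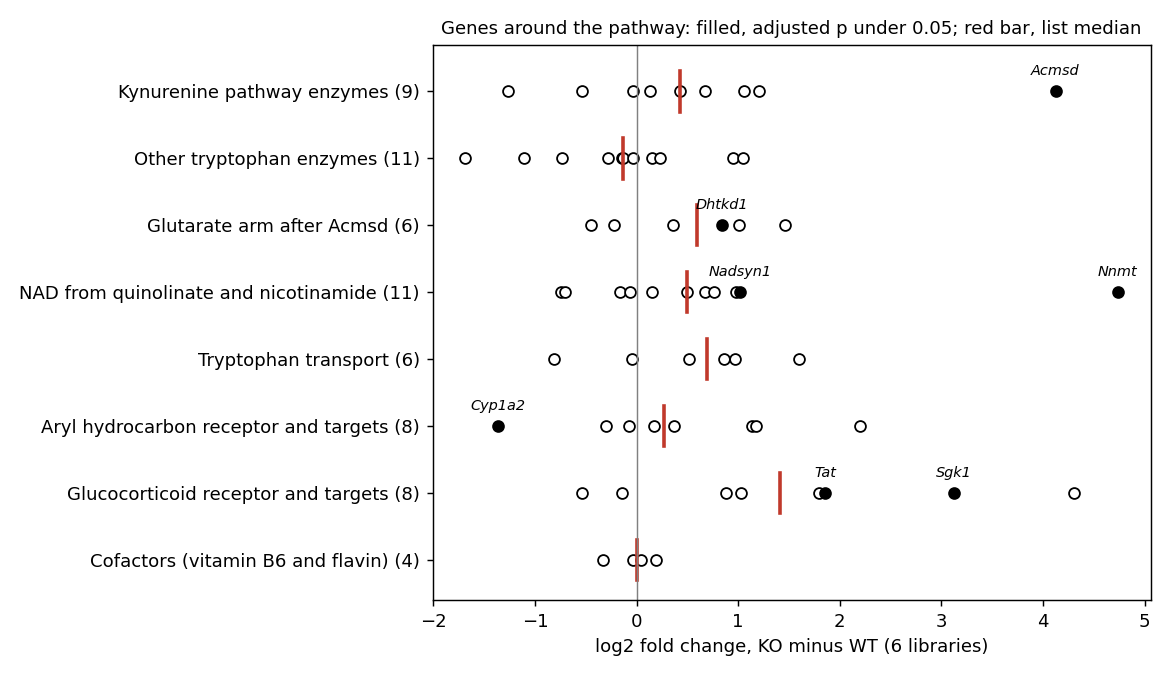
Log2 fold change of KO over WT (horizontal axis) for each tested gene of the pathway and of the surrounding lists, with the number tested in parentheses, filled circles for an adjusted p under 0.05 and red bars for list medians. Among the genes called, Nnmt at 4.74 and Acmsd at 4.12 have the largest estimates, followed by Sgk1 at 3.12. Dhtkd1, Nadsyn1, Tat and Cyp1a2 are also filled.

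Genes that followed a member most closely over the 6 libraries were sought among 11964 genes with a mean of at least 1 CPM, by Pearson's r of log2 CPM. These coefficients describe 6 libraries that share the same group difference. Nearest to Acmsd were Cox14, Nags and Whamm (r = 0.999, 0.998 and 0.998), and 594 genes had an r above 0.95 with it. Nearest to Ido2 were Cfhr3, Dhrs1 and AC117816.1, with r from 0.998 to 0.999, and nearest to Tdo2 were Ptpmt1, Kansl2 and Slc35g1, all at 0.997. Kynu was followed by Hbs1l, Pisd and Fancm and Qprt by Cluh, Otulin and Rbm4, with r from 0.993 to 0.996. Kmo was followed by Ndufv3, Net1 and Rnf169, Aadat by Braf, Zswim4 and Dnajc13, Haao by Gstz1, Isoc1 and Fopnl, and Afmid by Gm4951, Mrpl28 and Gm43667. Among the members themselves, Acmsd and Qprt had an r of 0.93, as did Kynu and Qprt, whereas Ido2 and Acmsd had -0.88 and Afmid and Haao 0.90.

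In bulk liver, fewer cells of a type and less RNA per cell cannot be told apart. Hepatocyte markers defined the tissue in every library, with Alb between 10394 and 95626 CPM. Summed over the 6 hepatocyte markers found in the table (Tf was not found under that symbol), they ran from 22234 to 71624 CPM in KO and from 84381 to 122691 CPM in WT. Of these 6 markers 5 had negative estimates and Cps1 a positive one, with 0 called by edgeR and 4 at an unadjusted p under 0.05. Macrophages can also express Kmo and Kynu, and the 7 macrophage markers summed to 66.3 to 159 CPM in KO and 101 to 136 CPM in WT. These ranges overlapped through KO 1, while KO 2 and KO 3, at 83.5 and 66.3 CPM, lay below every WT library. Of the macrophage markers edgeR called 0, and 0 had an unadjusted p under 0.05. The 6 endothelial markers summed to 67.2 to 112 CPM in KO and 135 to 185 CPM in WT. All 6 had negative estimates and 5 were lower in every KO library than in every WT library, with 0 called by edgeR and 5 at an unadjusted p under 0.05. The 6 stellate cell markers summed to 95.7 to 240.4 CPM in KO and 179 to 405 CPM in WT, and the 5 bile duct markers to 24.8 to 74.2 and 39.5 to 72.7 CPM. Lymphocyte, neutrophil and dendritic cell markers each summed to at most 3.13 CPM in any library, with Ly6g at 0 throughout. Along the lobule, 4 of 10 periportal markers were called as higher and 0 as lower, beside 2.15% and 1.22% of all genes tested. The periportal markers summed to 23749 to 45194 CPM in KO and 11412 to 12365 CPM in WT, and 9 of the 10 had positive estimates. The exception was Cyp2f2, with a log2 fold change of -1.75 (edgeR adjusted p = 0.123) and every KO library below every WT library. Cps1 is counted among both the hepatocyte and the periportal markers. Of 9 pericentral markers 8 had negative estimates and 6 were lower in every KO library than in every WT library, with 1 called as lower (Cyp1a2) and 1 as higher (Oat). Their summed level was 4405 to 7575 CPM in KO and 8972 to 10546 CPM in WT. The part of these shifts in the values of the 9 enzymes was not tested.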

How the data were processed

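Poly(A) RNA of about 20 mg of left liver lobe per mouse was sequenced from both ends (read length 76), as the labels' protocols state. The table that the authors deposited holds expected counts per gene, not scaled. The submitters' processing notes name bcl2fastq 2.17, cutadapt 1.18, STAR 2.7.0f, RSEM 1.3.1 and the build mm9, without roles. However, all 55450 identifiers, versions included, are those of GENCODE M21 (GRCm38), from which positions were taken. The use of strand is not given in the sources used here.

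Groups and replicate numbers came from the titles, and columns were matched by the samples' descriptions (0 unmatched). Counts were rounded, filtered with filterByExpr, TMM-scaled and compared with edgeR 4.0.16 (glmQLFTest, group only, R 4.3.3), with Benjamini-Hochberg adjustment over 14539 genes and a threshold of 0.05. The SE is the log2 fold change divided by the square root of F, and 95% intervals use its t distribution. Log2 CPM for ratios and correlations used a prior count of 2. DESeq2 1.42.0, limma 3.58.1 (voom) and other settings made 15 alternatives. The tests were tried on simulated counts.

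The members and lists were chosen with earlier results of these data known. Named are Stk11, the 9 members, list genes past the threshold plus up to 3 others per list by p-value, and the 3 genes most correlated with each member. All genes of the glucocorticoid list are named as well. The length used for levels per kilobase was chosen after seeing the data. Precision is set by 3 mice per group, since members had 685 to 199332 counts per library. One promoter sequence is not reported here.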

Additional observations from a re-analysis of the deposited data

Results flagged for a closer look

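The interaction of group with Xist state in edgeR passed an adjusted p of 0.05 for 6 genes of the surrounding lists and for 0 of the 9 pathway enzymes. The Xist pair is 1 library per group, so each value rests on KO 1 and WT 1, the Y libraries alone give the spread between libraries, and a difference between KO 1 or WT 1 as single mice and the Xist state cannot be told apart. Over all genes 2.9% passed this interaction. Nampt, the rate-limiting enzyme of NAD salvage, was at 35.3 CPM in KO 1 against 61.4 in WT 1 but at 135 and 119 CPM in KO 2 and KO 3 against 45.1 and 39.8 in WT 2 and WT 3 (adjusted p = 0.0109). Aox1, an aldehyde oxidase, was at 78.8 CPM in KO 1 and 67.2 in WT 1, and at 72.1 and 73.5 CPM against 141 and 158 in the others (adjusted p = 0.0443). Slc43a1, an amino acid transporter, was at 6.66 CPM in KO 1 and 7.67 in WT 1, and at 11.8 and 13.0 CPM against 4.05 and 4.30 in the others (adjusted p = 0.0256). Among glucocorticoid targets, Fkbp5 was at 28.7 CPM in KO 1 and 53.2 in WT 1, against 89.6 and 65.6 in the other KO and 15.9 and 20.9 in the other WT libraries (adjusted p = 0.0200). Zbtb16 was at 6.83 and 16.2 CPM in the pair, against 27.6 and 22.9 in the other KO and 7.85 and 7.21 in the other WT libraries (adjusted p = 0.00745). Mt2 was higher in KO in both subsets, at 84.0 against 15.1 CPM in the pair and at 117 and 130 against 0.887 and 0.812 CPM in the others (adjusted p = 0.00187).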

How the results depend on the processing

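Main counts were 490 genes, 1 pathway enzyme and 6 surrounding genes called. DESeq2 called 2290 genes, 5 enzymes and 21 surrounding genes. Without a filter on low counts there were 771 genes and 2 enzymes, and with library size alone 2 enzymes. The Xist state as a term gave 1504, 4 and 11, and the Y libraries 4847, 6 and 30. Leaving out 1 library gave 6 to 4473 genes, 0 to 5 enzymes and 0 to 28 surrounding genes, the highest without KO 1 and the lowest without WT 2. The cause was not tested. Library size alone turned the share of higher genes among all calls from 63.9% to 74.4%.

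With a replicate block 105 genes and 2 surrounding genes were called, and Acmsd kept its call (adjusted p = 0.0305). Same-numbered libraries are different mice, and their deviations correlated at 0.18, 0.04 and 0.07, with KO 3 closest to WT 2, so the numbers were not taken as pairs.

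Of 135 values of single enzymes under 15 alternatives, 109 kept direction and side of the threshold, 18 passed it newly, 4 lost it (all Acmsd) and 4 changed sign. The sign changes were Haao with library size alone (0.0026), without KO 2 (0.17) and without WT 2 (0.011), and Afmid without KO 3 (-0.090). Over refits without 1 library, Haao ran from -0.16 to 0.17 and Afmid from -0.090 to 0.37. With a prior count of 0.5 the differences of the ratios were 0.91 (Kmo to Aadat), -0.75 (Kmo to Kynu) and 3.25 (Acmsd to Qprt). Because the groups did not overlap in any of the 3 ratios, leaving out libraries could not change their sign.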
